A study of Homo sapiens with 12 samples.

Results

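The genes described here are 45 protein-coding genes of ribosome biogenesis, named by symbol and matched to the Ensembl gene identifiers of the count files. All 45 were found among 58051 genes, and all 45 passed the filter on low counts in every fit. They comprise 5 genes of small nucleolar ribonucleoprotein (snoRNP) and rRNA acetylation enzymes, 3 subunits of RNA polymerase I, 6 multifunctional nucleolar proteins, 15 factors that assemble the small ribosomal subunit and 16 that assemble the large subunit. They were listed by the known role of each gene, by a rule that uses no measured value, although earlier results of these data were known when the list was drawn up.

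Ribosomes are built in the nucleolus, where RNA polymerase I transcribes the precursor of most rRNA. SnoRNPs guide the chemical modification of this precursor, and a long series of helicases, nucleases, GTPases and scaffold proteins folds and cuts it into the small and the large subunit. Many of these genes are known targets of the transcription factor MYC, and their output is tied to growth factor signalling through the EGFR and ERBB receptors, to which the drugs of this study are directed.

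FaDu is a hypopharyngeal and Cal27 a tongue squamous cell carcinoma line, both with the genotype label WT. Each line was sampled as parental cells, as afatinib-resistant cells (AfaR) and as erlotinib-resistant cells (ErlR), with 2 libraries per group, labelled as biological replicates, and 12 libraries in all. Afatinib blocks the ERBB family irreversibly and erlotinib is a reversible EGFR inhibitor. The resistant models had been selected by stepwise dose escalation, and by the study's methods the cells spent a day without drug before use. Each model is 1 selected population, so resistance and the history of that population cannot be told apart. FaDu was kept in EMEM and Cal27 in DMEM, so line and medium cannot be told apart either. All libraries carry the same batch label, but read depth and spike-in share were not alike in all groups, as given below. The p-values measure the spread between these libraries.

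Poly(A) RNA was sequenced with ERCC spike-in RNA added. Reads counted on genes ranged from 16334937 to 23399259 per library, and the spike-ins took from 3.86% to 5.82% of counts, with 5.79% and 5.82% in FaDu parental cells and 3.95% and 4.60% in FaDu ErlR. FaDu parental and FaDu AfaR libraries had at least 20156109 gene counts and 5.64% spike-ins. FaDu ErlR and Cal27 libraries had at most 16689855 gene counts and 4.60% spike-ins. Comparisons of FaDu ErlR with other FaDu groups and of the parental lines cross this division, whose cause was not tested. The 45 genes took from 0.583% to 1.23% of the gene counts, lowest in Cal27 AfaR and highest in Cal27 ErlR. Levels are given as CPM, counts scaled to a common library size, after TMM scaling, which sets the libraries level on the bulk of genes. All 8 epithelial markers were detected in every group, 4 leukocyte markers summed to at most 4.37 CPM and 3 endothelial markers to at most 37.3 CPM. In Cal27 AfaR the epithelial markers summed to 880 and 978 CPM, against 3883 and 5017 CPM in Cal27 parental cells. The 6 fibroblast markers summed to 314 and 326 CPM in Cal27 AfaR, against 29.6 and 41.0 CPM in the parental cells.

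Promoter sequence was the first feature that the choice of genes had not used. RefSeq promoters on GRCh38.p14, from 250 bases before to 50 bases after the gene start, were found for 38 of the 45 genes. NOP58, NOLC1, RRP12, RRP1B, RRS1, BOP1 and DDX18 had no entry. The letters CACGTG, the E-box to which MYC and its partner MAX are known to bind, read the same on either strand. They were present in 14 of the 38 promoters (36.8%), against 7.26% of all 35116 promoters and 9.94% of the 11768 promoters of tested genes. CGGAAG, the core of ETS factor sites, was found on either strand in 19 of the 38, against 31.3% of tested genes, and the palindromic motif of BANP in 1 of 38 (2.63%), against 0.867%. No CACGTG overlapped a match to the other motifs, and 7 promoters held both CACGTG and CGGAAG. The median GC content of the 38 promoters was 63.8%, against 65.3% in tested genes. Of 15 CACGTG sites, 14 began within 50 bases of the gene start. Sites with their flanks are shown for genes that recur below, each read along the strand of its gene, with the motif in capitals.
FBL (chr19:39846356-39846385, minus strand): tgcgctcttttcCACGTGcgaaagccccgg
NAT10 (chr11:34105602-34105631, plus strand): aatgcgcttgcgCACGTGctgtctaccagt
RRP9 (chr3:51941892-51941921, minus strand): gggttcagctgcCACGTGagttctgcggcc
PWP2 (chr21:44107388-44107417, plus strand): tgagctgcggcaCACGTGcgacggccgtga
IMP4 (chr2:130342900-130342929, plus strand): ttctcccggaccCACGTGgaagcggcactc
UTP20 (chr12:101280083-101280112, plus strand): cttttttccgtcCACGTGacccactcaggc
NOP14 (chr4:2963374-2963403, minus strand): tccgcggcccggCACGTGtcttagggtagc
CACGTG was also found in 12 of 35 promoters of other small subunit assembly genes (34.3%) and in 14 of 44 of other large subunit assembly genes (31.8%). Further lists lay near or below the share of tested genes. They had 1 of 11 in other polymerase I genes, 1 of 9 in other snoRNP genes and 1 of 10 in nuclear exosome genes. Cytosolic ribosomal protein genes had 3 of 63 (4.76%). These matches describe letters in a window and were not tested for binding.

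Per kilobase of annotated exon, NPM1 was the most abundant of the 45 genes in all 6 groups and NCL came next. Both encode multifunctional nucleolar proteins, nucleophosmin and nucleolin. NPM1 lay between 320 CPM per kilobase in Cal27 AfaR and 603 in Cal27 ErlR, and NCL between 144 in Cal27 AfaR and 352 in FaDu ErlR. The lowest level per kilobase belonged to WDR12 in the FaDu groups, from 2.49 to 5.13, and to PWP2 in the Cal27 groups, from 0.790 to 4.25. In FaDu parental cells the highest level was 127 times the lowest, and the median of the 45 genes was 36.8 CPM per kilobase. That median was 27.2 for AfaR and 35.3 for ErlR of this line. The Cal27 line had 25.9 before selection, 17.4 as AfaR and 32.2 as ErlR.

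Summed over the 45 genes, FaDu parental libraries had 12704 and 11855 CPM, FaDu AfaR 9398 and 7781, and FaDu ErlR 12211 and 12268. In the Cal27 line the sums were 9866 and 8145 CPM in parental cells, 5246 and 6080 in AfaR and 13020 and 11111 in ErlR. Both AfaR models lay below their parental libraries with no overlap, and Cal27 ErlR lay above. FaDu ErlR lay within the parental range. When the libraries were scaled to the spike-ins instead, the log2 ratio of the summed level to parental was -0.36 for AfaR and 0.47 for ErlR in FaDu, and -0.65 for AfaR and 0.43 for ErlR in Cal27. The corresponding TMM ratios were -0.52, -0.0039, -0.67 and 0.42, so the scalings differed most in FaDu ErlR.

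**Figure D1:**
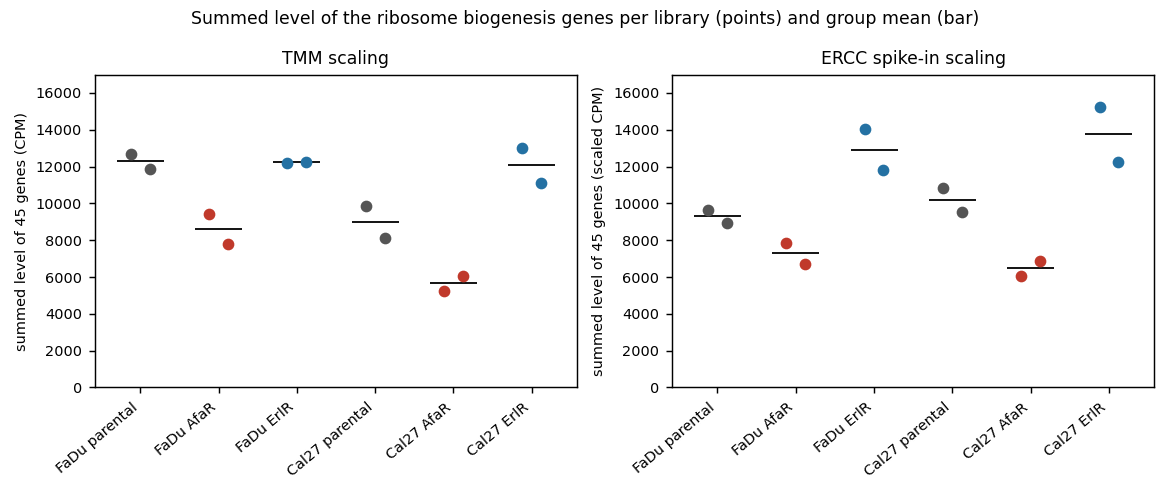
Summed level of the 45 ribosome biogenesis genes in each library (points) and group mean (bar), in TMM-normalized CPM (left) and in CPM scaled to the ERCC spike-ins (right). AfaR libraries lie below the parental libraries of their line under either scaling, while FaDu ErlR lies within the parental range under TMM, at 12211 and 12268 CPM, and above it under spike-in scaling.

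The question of the FaDu AfaR comparison was what differed after selection with afatinib. All 45 ribosome biogenesis genes had a negative log2 fold change, from -0.89 to -0.20, with a median of -0.47, or 0.723 of the parental level. The median of all 15092 tested genes was -0.0007. Of the 45 genes, 26 fell at an adjusted p under 0.05 by edgeR's quasi-likelihood test with Benjamini-Hochberg adjustment and 0 rose, where 7.49% of all tested genes were called lower and 10.4% higher. The fall was under 1 on the log2 scale in all 45, and 0.954% of all tested genes were called past it in this direction. In 44 of the 45 genes both AfaR libraries lay below both parental libraries, against 31.2% of all tested genes. The exception was RRS1, with 161.6 and 126.9 CPM in parental cells and 127.1 and 89.97 in AfaR.

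Among the snoRNP and acetylation genes, 3 of 5 fell in FaDu AfaR. NOP58, a core protein of the box C/D snoRNPs that guide rRNA methylation, had 164 and 154 CPM in parental cells and 96.5 and 82.9 CPM in AfaR. Its log2 fold change was -0.84 (SE 0.115, edgeR adjusted p = 0.00386). NOP56, its partner in the same particle, had 300 and 267 CPM in parental cells and 221 and 197 in AfaR, a log2 fold change of -0.46 (SE 0.110). FBL, the methyltransferase of that particle, had 293 and 338 against 253 and 215 CPM, a log2 fold change of -0.45 (SE 0.120). The groups did not overlap for any of these genes. DKC1, the pseudouridine synthase of the box H/ACA particles, had 414 and 402 CPM in parental cells and 348 and 289 in AfaR. DKC1 and NAT10, which acetylates cytidines of rRNA, were not called, at log2 fold changes of -0.38 and -0.32 (edgeR adjusted p = 0.0522 and 0.0720).

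Of the polymerase I subunits, POLR1B and POLR1C passed the test, at log2 fold changes of -0.67 (SE 0.129) and -0.49 (SE 0.147), while the largest subunit POLR1A was at -0.35 (SE 0.111, edgeR adjusted p = 0.0566). POLR1B had 66.0 and 60.3 CPM in FaDu parental cells and 43.7 and 36.6 in AfaR. POLR1A had 232 and 207 CPM against 184 and 164. The 6 multifunctional nucleolar proteins all fell, from -0.67 in NPM1 and -0.64 in the snoRNP chaperone NOLC1 to -0.43 in the RNA helicase DDX21. NPM1 had 2288 and 2132 CPM in parental cells and 1560 and 1246 in AfaR, and NCL had 2258 and 2153 against 1561 and 1335. The remaining members of this group, LYAR and MYBBP1A, were at -0.53 and -0.47.

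In small subunit assembly, 6 of 15 genes fell in FaDu AfaR. IMP4, which acts in the small subunit processome beside the U3 snoRNA, fell the most of these, from 117 and 111 CPM to 76.9 and 61.0 CPM, a log2 fold change of -0.74 (SE 0.129, edgeR adjusted p = 0.00845). TBL3 (-0.65), NOP14 (-0.63), UTP20 (-0.53), UTP15 (-0.51) and WDR43 (-0.51) also fell. The smallest change of the 45 genes was in IMP3, at -0.20. In large subunit assembly 9 of 16 genes fell. WDR12 had 40.8 and 41.9 CPM in parental cells and 24.9 and 20.4 CPM in AfaR, the largest fall of the 45 genes, with a log2 fold change of -0.89 (SE 0.145, edgeR adjusted p = 0.00708). WDR12 forms a complex with BOP1 and PES1 that is needed to mature the rRNA of the large subunit. BOP1 had 235 and 241 CPM in parental cells and 198 and 153 in AfaR (log2 fold change -0.46, called), and PES1 had 222 and 220 against 198 and 155 (-0.34, not called). RRP1B (-0.69), NOC2L (-0.64), the helicase DDX18 (-0.60), the GTPase nucleostemin GNL3 (-0.55), MRTO4 (-0.52) and the methyltransferases NOP2 (-0.47) and FTSJ3 (-0.40) completed the genes that fell.

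The count in FaDu AfaR depended on single libraries and on the scaling, while the direction did not. A library was left out in turn, with the remaining library of its group assumed to vary like the other groups. The number of the 45 genes called varied between these fits, and so did the number of all tested genes called. Every called gene of the 45 was lower. The median log2 fold change was -0.40 without FaDu parental replicate 1 and -0.56 without FaDu parental replicate 2. It was -0.64 without FaDu AfaR replicate 1 and -0.33 without FaDu AfaR replicate 2. Spike-in scaling put the median of all tested genes at 0.18 on the log2 scale and left 4 of the 45 genes called, all lower, with a median of -0.29. Of all 15092 tested genes, 220 were then called lower.

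The summed level of the 8 epithelial markers in FaDu AfaR overlapped that of the parental cells, at 6515 and 12930 CPM against 6427 and 10750, with 1 marker called higher, 1 lower and log2 fold changes from -1.40 to 0.687. The fibroblast markers summed to 6.99 and 7.46 CPM against 3.98 and 5.19, and the endothelial markers to between 6.45 and 20.3 CPM against 3.25 to 5.66. No fibroblast or endothelial marker was called. The part of these marker levels in the result was not tested.

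**Figure D2:**
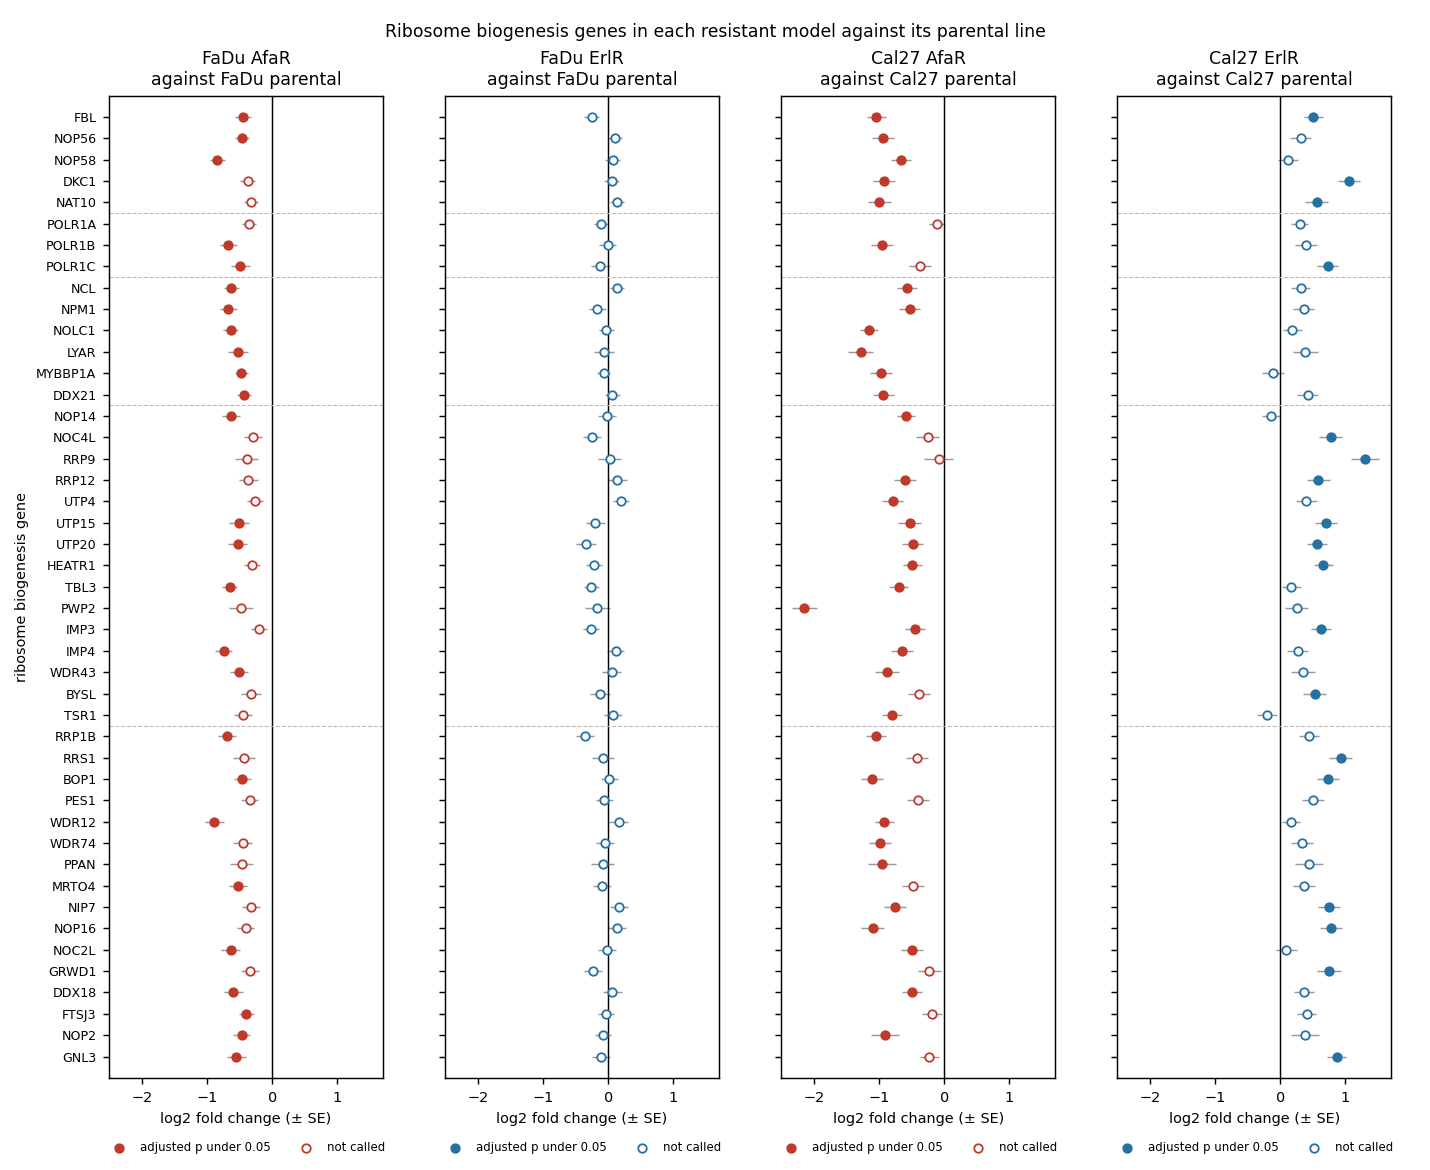
Log2 fold change (x axis, points with SE) of each of the 45 ribosome biogenesis genes (rows, dashed lines between roles) in each resistant model against its parental line, with filled points at an edgeR adjusted p under 0.05. All points lie left of 0 in FaDu AfaR and Cal27 AfaR, they scatter about 0 in FaDu ErlR with 0 filled, and 42 of 45 lie right of 0 in Cal27 ErlR.

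In FaDu ErlR, selected with erlotinib, 0 of the 45 genes were called by edgeR, where 4.18% of all tested genes were called in either direction. At an unadjusted p under 0.05 there were 2 of 45, UTP20 and RRP1B, against 21.2% of all tested genes, and DESeq2 called 0. The log2 fold changes ran from -0.36 in RRP1B to 0.19 in the small subunit factor UTP4, with a median of -0.05, and 28 of 45 were negative. Both ErlR libraries lay above both parental libraries in 9 of the 45 genes and below them in 12, against 27.8% and 25.9% of all tested genes. FBL had 268 and 265 CPM in ErlR, below both parental libraries at 293 and 338 (log2 fold change -0.25, 95% interval -0.525 to 0.0169). NCL had 2422 and 2460 CPM, above both parental libraries (0.13, interval -0.12 to 0.39). WDR12 had 50.2 and 43.2 CPM against 40.8 and 41.9 in parental cells (0.16, interval -0.16 to 0.485), and NOP58 had 162 and 173 against 164 and 154 (0.07, interval -0.19 to 0.32). NPM1 had 2065 and 1913 CPM, below both parental libraries (-0.16, interval -0.45 to 0.12), and POLR1A, at 208 and 200, overlapped them (-0.11). NOP56 (305 and 309 CPM), DKC1 (419 and 436) and BOP1 (243.4 and 243.0) lay just above both parental libraries, at 0.10, 0.06 and 0.02. POLR1B, at 61.4 and 65.1 CPM, and PES1, at 201 and 226, overlapped the parental libraries. Under spike-in scaling the median of all tested genes in this comparison was 0.49 on the log2 scale, and 24 of the 45 genes were then called higher, at a median of 0.44. Of all 15092 tested genes, 5655 were called higher under that scaling. The sign of the values of the 45 genes thus depends on the scaling. Relative to the median of all genes, the 45 genes were at -0.05 under either scaling.

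In Cal27 AfaR all 45 genes again had a negative log2 fold change, from -2.15 to -0.09, with a median of -0.66, or 0.633 of the parental level. The median of all 15269 tested genes was 0. Of the 45 genes, 34 fell and 0 rose by edgeR's test, where 18.2% of all tested genes were called lower. A fall past a log2 fold change of 1 was seen in 7 of the 45, against 8.06% of all tested genes. In 42 of 45 genes both AfaR libraries lay below both parental libraries, against 36.0% of all tested genes. RRP9, GRWD1 and FTSJ3 overlapped. These falls went with the lower epithelial and higher fibroblast marker levels of the same libraries given above, where 7 of 8 epithelial markers were called lower and 3 of 6 fibroblast markers higher, and their part in the result was not tested. The endothelial markers overlapped, at 30.04 to 37.3 CPM against 31.7 to 32.6 in parental cells. The study described this model as compatible with a partial epithelial-mesenchymal transition, with N-cadherin and vimentin protein higher and E-cadherin protein not lower. In bulk RNA, fewer cells of a kind and less RNA per cell cannot be told apart.

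The largest fall was in PWP2, a scaffold protein of the small subunit processome. It had 27.1 and 21.5 CPM in Cal27 parental cells and 5.67 and 5.28 CPM in AfaR, which is 4.43-fold lower (log2 fold change -2.15, SE 0.194, edgeR adjusted p = 4.98e-05). No other of the 45 genes fell by more than 1.28 on the log2 scale. That value belonged to LYAR, a nucleolar growth regulator, with 82.0 and 57.7 CPM in parental cells and 26.3 and 31.1 in AfaR (SE 0.195, edgeR adjusted p = 0.000971). NOLC1 followed, with 425 and 368 CPM against 168 and 189 (log2 fold change -1.15, SE 0.143, edgeR adjusted p = 0.000312). In all of these the AfaR libraries lay well below the parental libraries.

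By role, all 5 snoRNP and acetylation genes fell in Cal27 AfaR. FBL had 311 and 271 CPM in parental cells and 128 and 155 in AfaR, a log2 fold change of -1.04 (SE 0.143). NAT10 had 264 and 233 against 110 and 139 CPM (-0.996), NOP56 202 and 158 against 84.7 and 103 (-0.94), DKC1 226 and 195 against 96.8 and 125 (-0.92) and NOP58 147 and 138 against 80.9 and 99.6 (-0.66). The polymerase I subunits did not move alike. POLR1B fell from 84.6 and 64.6 CPM to 34.9 and 41.9 (log2 fold change -0.96, SE 0.170), while POLR1A had 120 and 111 CPM in parental cells and 106 and 108 in AfaR (-0.11, 95% interval -0.39 to 0.17) and POLR1C was at -0.37 (edgeR adjusted p = 0.114). All 6 multifunctional nucleolar proteins fell, with MYBBP1A at -0.97, DDX21 at -0.94, NCL at -0.57 and NPM1 at -0.53 beside LYAR and NOLC1. NPM1 had 1952 and 1590 CPM in parental cells and 1108 and 1340 in AfaR, and NCL had 1596 and 1364 against 954 and 1038.

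Small subunit assembly had 12 of 15 genes lower. Beside PWP2 they were WDR43 (-0.88), TSR1 (-0.80), UTP4 (-0.79), TBL3 (-0.70), IMP4 (-0.65), RRP12 (-0.60), NOP14 (-0.59), UTP15 (-0.53), HEATR1 (-0.49), UTP20 (-0.48) and IMP3 (-0.45). The U3 snoRNP protein RRP9 was at -0.09 (95% interval -0.57 to 0.40). Large subunit assembly had 10 of 16 lower. BOP1 had 177 and 141 CPM in parental cells and 64.4 and 83.4 in AfaR, a log2 fold change of -1.11 (SE 0.173, edgeR adjusted p = 0.00113). Its partner WDR12 fell from 73.4 and 59.3 CPM to 33.0 and 37.2 (-0.92), and PES1, at 225 and 183 against 142 and 165 CPM, was not called (-0.41, edgeR adjusted p = 0.0868). NOP16 (-1.10), RRP1B (-1.05), WDR74 (-0.98), PPAN (-0.95), NOP2 (-0.91), NIP7 (-0.76), NOC2L (-0.50) and DDX18 (-0.50) were the others that fell. With a library left out, the number called changed for the 45 genes and for all tested genes. The median log2 fold change stayed between -0.785 (without Cal27 AfaR replicate 2) and -0.58 (without Cal27 parental replicate 1).

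The AfaR models of FaDu and Cal27 share no library. Of the 45 genes, 22 fell in both, which is 84.6% of the 26 that fell in FaDu AfaR and 64.7% of the 34 that fell in Cal27 AfaR. Of all 13995 genes tested in both lines, 463 (3.31%) were called lower in both models, which is 41.6% of those that fell in FaDu AfaR and 17.6% of those that fell in Cal27 AfaR. POLR1C, MRTO4, FTSJ3 and GNL3 were called lower in FaDu AfaR alone, and POLR1A, NOC4L, RRP9, BYSL, RRS1, PES1 and GRWD1 in neither. Whether the effect differed between lines was tested as an interaction over all 12 libraries. It was larger in Cal27 for PWP2, NAT10 and FBL, which is 3 of the 45 genes, where 10.5% of all tested genes were called lower in this test. The difference of log2 fold changes, Cal27 minus FaDu, was -1.69 for PWP2 (SE 0.284, edgeR adjusted p = 0.00151). It was -0.70 for NAT10 and -0.61 for FBL, and the median over the 45 genes was -0.21. PWP2 was the gene called past a log2 difference of 1, against 7.57% of all tested genes. With no limit on the fold, DESeq2 called 7 of the 45 genes, and 1707 of all 16240 tested genes, lower. The median difference moved when a library was left out. It lay between -0.33 (without Cal27 AfaR replicate 2) and -0.03 (without FaDu AfaR replicate 1).

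**Figure D3:**
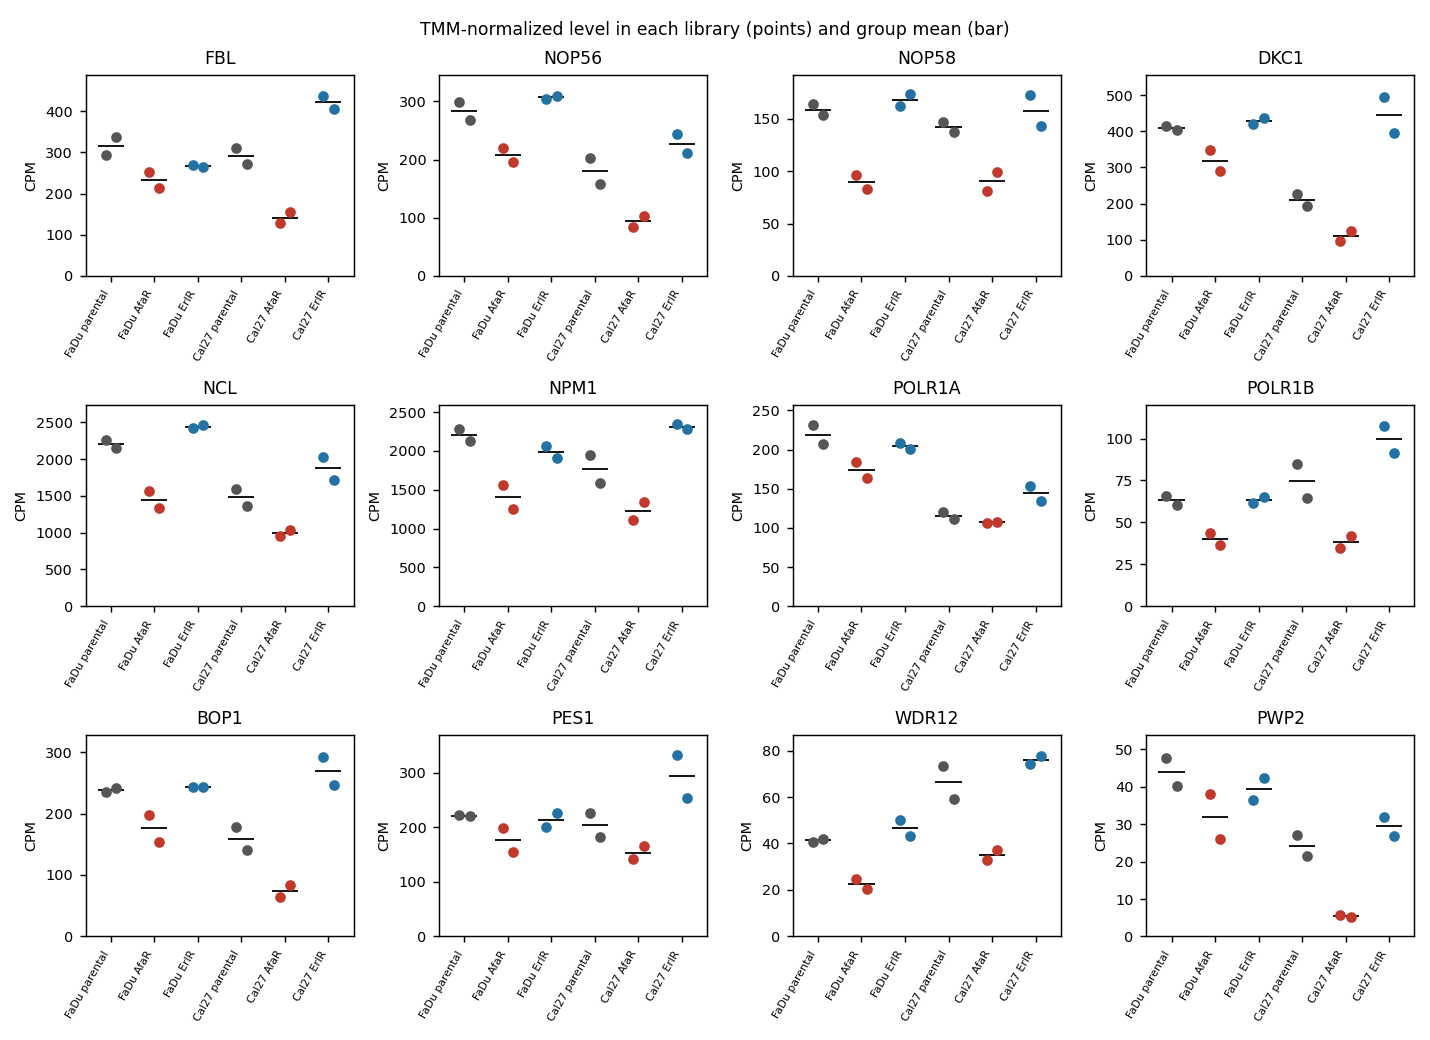
TMM-normalized CPM of 12 ribosome biogenesis genes in each of the 12 libraries (points), with the mean of each group (bar) and y axes from 0. Parental libraries are grey, AfaR red and ErlR blue, and PWP2 in Cal27 AfaR, at 5.67 and 5.28 CPM, is the lowest value plotted.

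In Cal27 ErlR the genes moved the other way. The log2 fold change was positive in 42 of 45 genes, with a range from -0.20 to 1.30 and a median of 0.40, or 1.32 times the parental level, where the median of all tested genes was -0.03. By edgeR's test 18 of the 45 rose and 0 fell, against 12.3% of all tested genes called higher. Both ErlR libraries lay above both parental libraries in 36 of the 45 genes, against 34.0% of all tested genes. RRP9 rose the most, from 49.6 and 32.1 CPM in parental cells to 116 and 89.0 CPM in ErlR, a log2 fold change of 1.30 (SE 0.217, edgeR adjusted p = 0.00268). DKC1 rose from 226 and 195 CPM to 496 and 394 (log2 fold change 1.06, SE 0.171, edgeR adjusted p = 0.00236). RRS1, which takes part in placing the smallest rRNA in the large subunit, rose from 67.9 and 55.8 CPM to 135 and 105 (0.93, SE 0.173, edgeR adjusted p = 0.00459). RRP9 and DKC1 were the genes of the 45 called past a log2 fold change of 1, against 3.56% of all tested genes. In the same libraries the epithelial markers summed to 4913 and 4945 CPM, within the parental range, but 3 of the 8 were called lower and 1 higher, at log2 fold changes from -3.19 to 1.01. The fibroblast markers summed to 4.85 and 10.3 CPM, below the parental range, with 3 of 6 called lower. The endothelial markers lay between 2.49 and 6.04 CPM, against 31.7 to 32.6 in parental cells, with 1 of 3 called lower. The part of these marker levels in the result was not tested.

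Of the snoRNP and acetylation genes, FBL and NAT10 rose beside DKC1, at 0.51 and 0.56 on the log2 scale. FBL had 437 and 406 CPM in ErlR against 311 and 271 in parental cells. NOP58 had 173 and 143 CPM against 147 and 138 (0.12, 95% interval -0.21 to 0.46), and NOP56 244 and 211 against 202 and 158 (0.31, edgeR adjusted p = 0.181). POLR1C rose by 0.72, while POLR1A and POLR1B were at 0.30 and 0.39 (edgeR adjusted p = 0.110 and 0.112). POLR1A had 154 and 135 CPM and POLR1B 108 and 91.3 in ErlR, above each parental library. None of the 6 multifunctional nucleolar proteins was called by edgeR, at values from -0.12 in MYBBP1A to 0.42 in DDX21. NPM1 had 2341 and 2279 CPM in ErlR (0.36) and NCL 2022 and 1721 (0.31), in both cases above each parental library.

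Small subunit assembly had 8 of 15 genes higher, namely RRP9, NOC4L (0.77), UTP15 (0.70), HEATR1 (0.66), IMP3 (0.62), RRP12 (0.58), UTP20 (0.56) and BYSL (0.53). TSR1 and NOP14 had negative values, -0.20 and -0.14, with overlapping libraries. Large subunit assembly had 6 of 16 higher. These were RRS1, GNL3 (0.86), NOP16 (0.78), NIP7 (0.75), GRWD1 (0.75), a histone and ribosomal protein chaperone, and BOP1 (0.73). BOP1 had 292 and 246 CPM in ErlR against 177 and 141 in parental cells, PES1 332 and 254 against 225 and 183 (0.50, not called) and WDR12 74.1 and 77.5 against 73.4 and 59.3 (0.17, not called). Fewer of the 45 genes, and fewer of all tested genes, were called higher without Cal27 parental replicate 2 or without Cal27 ErlR replicate 1. In those fits the 45 genes stood closer to the share of all tested genes, at median log2 fold changes of 0.29 and 0.27. Without Cal27 ErlR replicate 2 the median was 0.59. The median log2 fold change stayed between 0.27 and 0.62 with each library left out.

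The effect of ErlR differed between the lines in 14 of the 45 genes, all with the higher value in Cal27, where 8.80% of all tested genes were called higher in this interaction test. The largest difference was in RRP9, at 1.29 (SE 0.311, edgeR adjusted p = 0.0138), followed by NOC4L at 1.03 and RRS1 at 1.02. With DKC1 they were the 4 genes of the 45 called past a log2 difference of 1, against 3.36% of all tested genes. Fewer of the 45 genes, and fewer of all tested genes, were called higher without Cal27 ErlR replicate 1, Cal27 parental replicate 2, FaDu parental replicate 1 or FaDu ErlR replicate 1. The median difference over the 45 genes was 0.29, 0.36, 0.43 and 0.45 in these fits, against 0.47 with all libraries. Under spike-in scaling, which put the median of all tested genes at -0.49 in this contrast, 1 of the 45 genes was called and with the lower value in Cal27. Of all 16240 tested genes, 3765 were then called lower. Neither the count of the 45 genes nor its direction held under that scaling.

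Set side by side within a line, AfaR lay below ErlR for most of the 45 genes. In FaDu 22 of 45 were called lower in AfaR than in ErlR, against 7.65% of all tested genes, with a median of -0.44 and the largest differences in WDR12 (-1.05), NOP58 (-0.91) and IMP4 (-0.86). IMP4 had 76.9 and 61.0 CPM in AfaR and 124 and 125 in ErlR. The FaDu count changed when a library was left out, for the 45 genes and for all tested genes. The FaDu median then lay between -0.62 (without FaDu AfaR replicate 1) and -0.29 (without FaDu AfaR replicate 2). In Cal27 all 45 were called lower in AfaR than in ErlR by edgeR, against 23.2% of all tested genes, from -2.40 in PWP2 and -1.98 in DKC1 to -0.41 in POLR1A. The median was -1.15, and 29 of the 45 passed a log2 difference of 1, against 8.86% of all tested genes. The libraries did not overlap in all 45, against 38.1% of all tested genes with AfaR lower. NOP16 had 19.3 and 22.8 CPM in Cal27 AfaR and 89.2 and 67.9 in Cal27 ErlR, a log2 difference of -1.88. With each library left out in turn, the Cal27 median stayed between -1.31 and -1.04.

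Before selection, the lines differed as well. Against FaDu parental cells, 25 of the 45 genes were lower in Cal27 parental cells and 2 were higher under TMM scaling, where 26.8% of all 16240 tested genes were called lower and 28.7% higher. The median log2 fold change was -0.43, against 0.04 for all tested genes. A fall past 1 on the log2 scale was called in 5 of the 45, against 12.5% of all tested genes. The Cal27 libraries lay below the FaDu libraries in 32 of the 45 and above in 2, against 38.7% and 40.8% of all tested genes. NOC4L, a small subunit factor, had 110 and 112 CPM in FaDu and 35.3 and 30.2 CPM in Cal27, which is 3.40-fold lower (log2 fold change -1.76, SE 0.172, edgeR adjusted p = 3.65e-06). RRS1 was lower by 2.33-fold (162 and 127 against 67.9 and 55.8 CPM) and NIP7, a large subunit factor, by 2.28-fold (272 and 232 against 123 and 98.2 CPM). DKC1 was 1.94-fold and POLR1A 1.90-fold lower in Cal27. WDR12 was 1.61-fold higher in Cal27 (edgeR adjusted p = 0.00152) and NAT10 was 1.32-fold higher (edgeR adjusted p = 0.0375). Spike-in scaling put the median of all tested genes at 0.62 and turned the split to 12 of the 45 genes higher and 5 lower. Of all 16240 tested genes, 7917 were then called higher and 1714 lower. The direction of this comparison thus depends on the scaling. The distance of the median of the 45 genes from that of all genes was -0.46 under either scaling.

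The other genes of the pathway were taken from lists of known factors. Over all tested genes, 7.49% were called lower and 10.4% higher in FaDu AfaR, and 18.2% lower and 19.5% higher in Cal27 AfaR. In Cal27 ErlR, 12.3% of all tested genes were called higher and 15.3% lower. Of 41 other small subunit assembly genes, 17 were lower in FaDu AfaR. Cal27 AfaR had 12 of them lower and 2 higher, and Cal27 ErlR had 22 higher and 1 lower. Of 48 other large subunit assembly genes, 16 and 21 were lower in FaDu AfaR and Cal27 AfaR, and 16 were higher and 1 lower in Cal27 ErlR. Of 12 other polymerase I genes, 2 were lower and 1 higher in FaDu AfaR, 6 lower in Cal27 AfaR and 5 higher in Cal27 ErlR. Other snoRNP genes, 11 in number, had 1 and 3 lower in the AfaR models and 2 higher in Cal27 ErlR, and of 12 nuclear exosome genes 2 were lower in FaDu AfaR, 6 lower and 1 higher in Cal27 AfaR and 4 higher in Cal27 ErlR. With a list this short, the counts of other snoRNP genes lay near the shares of all tested genes. The medians of all these lists were negative in both AfaR models and positive in Cal27 ErlR.

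Of 79 cytosolic ribosomal protein genes, the products that the 45 factors assemble, 25 were lower in FaDu AfaR and 56 lower and 1 higher in Cal27 AfaR, with medians of -0.34 and -0.48. Called lower over all tested genes were 7.49% in FaDu AfaR and 18.2% in Cal27 AfaR, where 19.5% were called higher. In Cal27 ErlR 12 were higher and 4 lower with a median of 0.07, where 12.3% of all tested genes were called higher and 15.3% lower. The 12 ribosomal protein genes that rose were thus close to the share of all tested genes. In the same model the small subunit assembly genes among the 45 had a median of 0.53 and the large subunit assembly genes of 0.445. In FaDu ErlR, 0 of the 45 genes and 4 of the 79 ribosomal protein genes were called, all 4 lower.

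**Figure D4:**
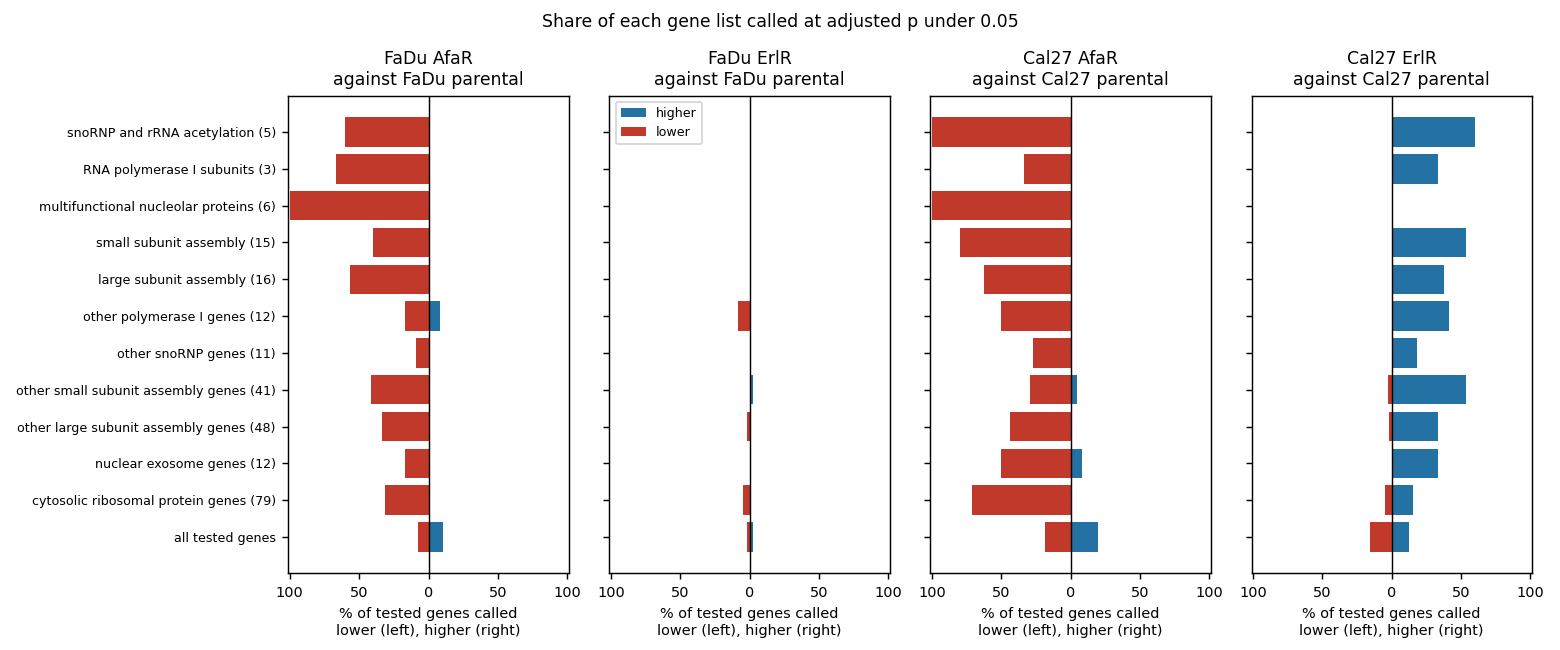
Percentage of each gene list called higher (blue, right) or lower (red, left) at an edgeR adjusted p under 0.05 in each resistant model against its parental line, with the number of genes listed in brackets and all tested genes in the bottom row. The upper 5 rows are the roles of the 45 genes, which are called lower in both AfaR models and higher in Cal27 ErlR, except the 6 multifunctional nucleolar proteins, of which 0 are called in Cal27 ErlR.

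MYC had 421 and 365 CPM in Cal27 parental cells, 82.4 and 104 in Cal27 AfaR and 379 and 395 in Cal27 ErlR, with log2 fold changes of -2.08 (SE 0.153, edgeR adjusted p = 1.61e-05) and -0.05. In FaDu it had 249 and 314 CPM in parental cells, 190 and 229 in AfaR and 300 and 249 in ErlR, with log2 fold changes of -0.45 (edgeR adjusted p = 0.0696) and -0.05. For Cal27 ErlR the study reported, by gene set enrichment, that signatures for TGF-beta and MYC were raised the most. Those are measures over sets of genes, unlike the MYC level given here. The other MYC family genes were at low levels and did not move with MYC in every model. MYCL was called higher in FaDu AfaR, at 2.96 and 5.22 CPM against 1.26 and 1.04 in parental cells (log2 fold change 1.81, edgeR adjusted p = 0.0204), and lower in Cal27 AfaR, at 0.755 and 1.10 CPM against 2.97 and 1.92 (-1.39, edgeR adjusted p = 0.0295). MYCN was called higher in Cal27 AfaR, at 2.37 and 0.812 CPM against 0.116 and 0.408 (2.58, edgeR adjusted p = 0.0324). MAX was not called in any resistant model. Genes of the 45 with and without CACGTG in the promoter had similar medians in the resistant models against their parental lines. In Cal27 AfaR the 14 with the motif had a median log2 fold change of -0.72 and the 24 without it -0.63. In FaDu AfaR these medians were -0.47 and -0.46, and in Cal27 ErlR 0.39 and 0.41. Of the 14 with the motif 10 fell in Cal27 AfaR, and of the 24 without it 18 fell. The medians lay further apart between parental lines, at -0.25 with the motif and -0.45 without it. In the AfaR interaction they were -0.24 and -0.13, and the 3 genes called there had the motif.

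The 45 genes lie on 18 chromosomes, 8 of them on chromosome 2. To see whether a gene stood apart from its surroundings, its log2 fold change was set beside the median of the 10 tested genes on either side, with the other ribosome biogenesis genes left out. In FaDu AfaR all 45 lay below their neighbours, in Cal27 AfaR 43 of 45 did, and in Cal27 ErlR 44 of 45 lay above. With 5 genes on either side these counts were 44, 43 and 43. Some neighbourhoods moved too. In FaDu AfaR the neighbours of 5 genes on chromosome 2 had lower medians, namely -0.45 at IMP4, -0.371 at NCL, -0.365 at POLR1B, -0.31 at WDR12 and -0.29 at NOP58, and these include the largest falls of that model. In Cal27 AfaR the neighbours of PWP2 and of RRP1B on chromosome 21 had a median of -0.73. Those of NOP56 on chromosome 20 had a median of -0.71, and PWP2 itself was at -2.15. These neighbourhoods were also lower in Cal27 ErlR, against the same parental libraries. The medians there were -0.584 at PWP2, -0.706 at RRP1B and -0.426 at NOP56.

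In Cal27 ErlR the neighbours of GNL3 and RRP9 on chromosome 3 had medians of 0.97 and 0.61, and those of DKC1 on chromosome X a median of 0.48. GNL3, at 0.86, was the gene that did not exceed its neighbours. The same neighbourhoods were at -1.03, -0.745 and -0.740 in Cal27 parental against FaDu parental cells, a comparison that shares the Cal27 parental libraries. Copy number was not measured, and its part was not tested.

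**Figure D5:**
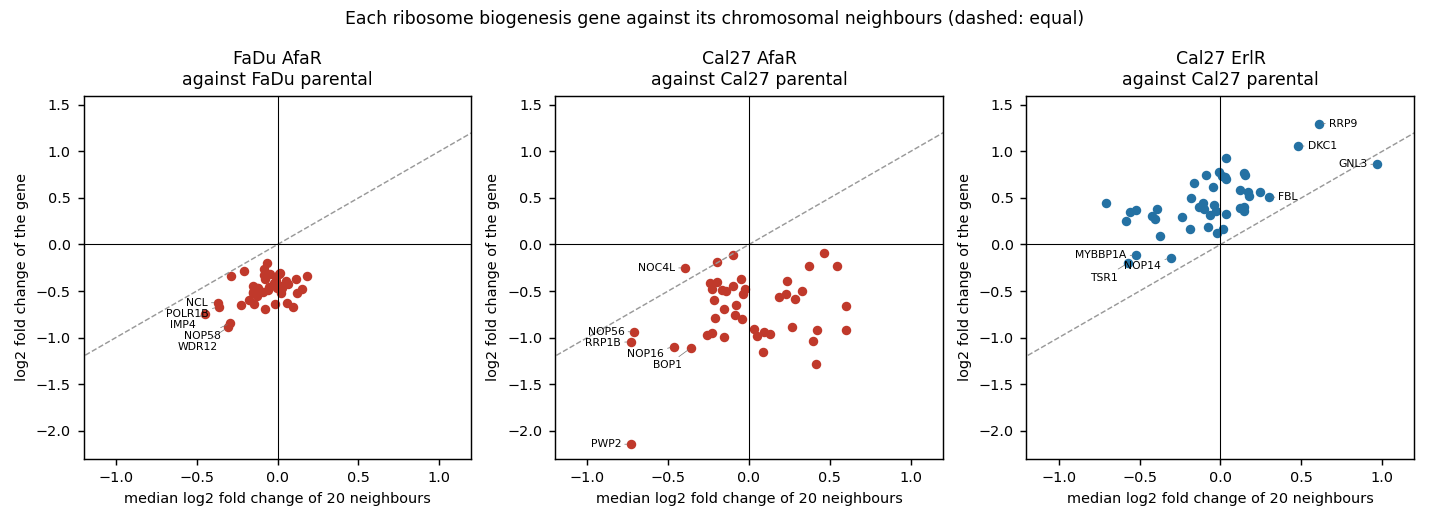
Log2 fold change of each of the 45 ribosome biogenesis genes (y axis) against the median log2 fold change of the 20 tested genes around it (x axis) in FaDu AfaR, Cal27 AfaR and Cal27 ErlR, with the dashed line at equal values and names at genes whose neighbourhood moved in the same direction by at least 0.29. All FaDu AfaR points lie below the line, and in Cal27 ErlR GNL3 is the only point below it.

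By GENCODE annotation on GRCh38, 8 of the 45 genes carry 27 snoRNA genes within their bounds, with 6 in GNL3, 5 in NOP56 and 4 in NOP58. The exons of 26 genes overlap those of another gene, and for 6 of them over 20% of exon bases are shared. The shares were 59.8% in PPAN, which lies inside the readthrough gene PPAN-P2RY11, 59.3% in IMP3, 29.9% in TBL3, 23.2% in HEATR1, 22.3% in WDR74 and 20.8% in TSR1. The strand setting of the counting is not given in the sources used here, so the values of these 6 genes are less certain than the others. PWP2, RRP9, BOP1, FBL, NAT10 and NPM1 share no exon base with another gene.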

How the data were processed

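Poly(A) RNA of 12 libraries (6 groups of 2) was sequenced. Per the labels, reads were trimmed with Trimmomatic 0.36, aligned with STAR 2.5.2b to GRCh38 and counted on genes with featureCounts of Subread 1.5.2, and the authors deposited raw gene counts per library without normalization. The strand setting of the counting is not given in the sources used here. From these counts, CPM were computed with TMM factors in edgeR 4.0.16 (R 4.3.3), with the 92 ERCC spike-ins kept out of library sizes. Of 58051 gene IDs, 56948 had a symbol. The quasi-likelihood test was run after filterByExpr, in a fit of 6 libraries for each line (3 residual degrees of freedom; 15092 genes in FaDu and 15269 in Cal27), and in a fit of all 12 libraries for contrasts between lines (6 residual degrees of freedom; 16240 genes). A gene was called at a Benjamini-Hochberg adjusted p under 0.05 over all tested genes, with no limit on the fold. Replicates differed by more than sampling noise, with a chi-square per degree of freedom from 12.7 to 26.7. Alternatives were DESeq2 1.42.0, other scalings, filters and fits, a replicate block and leaving out each library.

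The 45 genes, the pathway lists and the markers were chosen with earlier results of these data known. Values in every library were given for 11 chosen genes and for up to 3 called genes with the largest rise and the largest fall in a comparison, at a mean of at least 5 CPM. Of the other pathway lists, up to 2 called genes in each direction were named.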

Additional observations from a re-analysis of the deposited data

Results flagged for a closer look

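The effect of resistance differed between the lines in the interaction test of edgeR for 17 values. They are given here as the log2 fold change in Cal27 minus that in FaDu. For AfaR 3 of the 45 genes (6.67%) were called lower, below the 10.5% of all tested genes. For ErlR 14 (31.1%) were called higher, against 8.80%. For AfaR they were -0.6089 in FBL, -0.6969 in NAT10 and -1.689 in PWP2, with the larger fall in Cal27. For ErlR the differences of the snoRNP and polymerase genes were 0.7756 in FBL, 1.015 in DKC1 and 0.855 in POLR1C. Among small subunit assembly genes they were 1.031 in NOC4L, 1.29 in RRP9, 0.9121 in UTP15, 0.9162 in UTP20, 0.8918 in HEATR1 and 0.8945 in IMP3. Among large subunit assembly genes they were 0.8182 in RRP1B, 1.021 in RRS1, 0.726 in BOP1, 0.9996 in GRWD1 and 0.9844 in GNL3. The ErlR differences were positive under TMM scaling and were not called under spike-in scaling. With 2 libraries per group, no single library could be tested as standing apart.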

How the results depend on the processing

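With 2 libraries per group the counts of the 45 genes called moved more than their direction, and their cause was not tested. When a library was left out, the number of all tested genes called moved as well. Past a log2 fold change of 1, the counts were 0 in FaDu AfaR, 7 in Cal27 AfaR, 2 in Cal27 ErlR, 5 between parental lines, 1 and 29 for AfaR against ErlR in FaDu and Cal27, and 1 and 4 in the AfaR and ErlR interactions. Spike-in (ERCC) scaling gave 4 in FaDu AfaR, 24 in FaDu ErlR, 17 between parental lines (12 higher, which reversed the direction), 40 for FaDu AfaR against ErlR, 9 in the AfaR interaction and 1 in the ErlR interaction (lower, reversed). Of 15092 tested genes in FaDu, that scaling called 220 lower in AfaR, 5655 higher in ErlR and 3641 lower for AfaR against ErlR. Of 16240 tested over both lines, it called 7917 higher and 1714 lower between parental lines. It called 1998 lower in the AfaR interaction and 3765 lower in the ErlR interaction. It also reversed some log2 fold changes that were called under either scaling. These were POLR1B and PES1 in FaDu ErlR, at 0.4761 and 0.4214. Between parental lines they were FBL, NOP58, NCL and PES1, at 0.4633, 0.4252, 0.003251 and 0.4632. Uncalled values changed sign as well. In FaDu ErlR the mean spike-in scaled levels of FBL, NPM1 and POLR1A were 282, 2107 and 216. Those of FaDu parental cells were 239, 1676 and 166, and NPM1 was at 2004 in Cal27 parental cells. Upper-quartile scaling gave 17 in FaDu AfaR and 6 in the AfaR interaction. DESeq2 gave 7 in that interaction, no filter on low counts 10, and at least 10 counts in every library 5. Without the filter 1 gene was called in FaDu ErlR. In a fit of all 12 libraries, 14 were called in FaDu AfaR and 14 for FaDu AfaR against ErlR, and the 4 libraries compared alone gave 11 for the latter.

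With each library left out in turn, the counts ranged from 1 to 42 in FaDu AfaR, 0 to 0 in FaDu ErlR, 16 to 36 in Cal27 AfaR, 4 to 22 in Cal27 ErlR, 18 to 27 between parental lines, 5 to 32 and 40 to 45 for AfaR against ErlR in FaDu and Cal27, and 1 to 9 and 4 to 16 in the AfaR and ErlR interactions. Over 117 values of named genes there were 1965 alternative values. Of these, 1799 stayed on the same side of the threshold, 116 lost the call, 44 gained it and 6 were reversed. A change of sign counted as reversed only where the main or the alternative value was called.

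The replicate numbers did not pair the samples. The deviations of same-numbered libraries from their group means correlated between -0.249 and 0.161 within a line. With the replicate block, 24, 0, 31 and 16 of the 45 genes were called in FaDu AfaR, FaDu ErlR, Cal27 AfaR and Cal27 ErlR, 26 between parental lines, 24 and 45 for AfaR against ErlR in FaDu and Cal27, and 4 and 14 in the AfaR and ErlR interactions.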

Other observations

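Factors of the pathway outside the 45 genes also changed. WDR3, a small subunit processome protein, had 138 and 110 CPM in Cal27 parental cells and 775 and 612 CPM in Cal27 ErlR, a log2 fold change of 2.46 (SE 0.174, edgeR adjusted p = 5.92e-05). NOL12, a large subunit factor, had 9.02 and 4.95 CPM against 31.0 and 29.2 (2.08, SE 0.258, edgeR adjusted p = 0.000732). TAF1D, a component of the selectivity factor of RNA polymerase I, fell in Cal27 AfaR from 118 and 110 CPM to 45.6 and 40.4 (-1.41, SE 0.130, edgeR adjusted p = 5.63e-05). RRN3, the initiation factor that brings RNA polymerase I to its promoter, rose in FaDu AfaR from 162 and 147 CPM to 284 and 258 (0.79, SE 0.107, edgeR adjusted p = 0.00373), while the polymerase subunits POLR1B and POLR1C fell there.

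The 20 genes around NAT10 on chromosome 11 had a median log2 fold change of 2.52 in Cal27 parental against FaDu parental cells, while NAT10 itself was at 0.41.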
